A study of Mus musculus with 120 samples.

Results

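The cerebellum of 10-week-old mice that carry an expanded ataxin-1 allele with the K772T change was compared with that of mice that carry the same expansion without it. Every library whose title names the cerebellum, 10 weeks and one of these 2 genotypes was taken, which gave 8 of the 120 libraries of the series, 4 per genotype. All mice were C57BL/6J. The 175Q mice carry 1 Atxn1 allele with a CAG repeat of that labelled length and 1 normal mouse allele of 2Q. In the 175QK772T mice the expanded allele also holds K772T, a change within the signal that takes ataxin-1 into the nucleus, and 4 libraries of wild-type (WT) mice of 10 weeks served as the reference. Of the 175Q mice 2 were female and 2 male, of the 175QK772T mice 3 were female and 1 male, and of the WT mice 2 and 2. Whole cerebellum was extracted, poly(A) RNA was read as 150-nt pairs, and the 2 alleles of Atxn1 are counted together. Each library is 1 mouse, so p-values measure the spread between mice. In such bulk tissue, fewer cells of a type and less RNA per cell cannot be told apart.

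Ataxin-1 is a nuclear protein that works in complexes with the repressor Capicua and with the nuclear receptor ROR-alpha. Expansion of its glutamine tract causes spinocerebellar ataxia type 1, in which Purkinje cells, the only output neurons of the cerebellar cortex, lose dendrites and later die. The protein enters the nucleus through a short basic stretch near its C terminus, and K772T replaces a lysine of this stretch by threonine. The reference coding sequence of the stretch is shown because it is the only designed difference between the 2 groups. It lies in exon 8 of 8 of the annotated mouse transcript, at GRCm38 chr13:45557175-45557207 on the minus strand, and capitals mark the lysine codon, which is codon 747 of the 791 of the mouse transcript with its short glutamine tract, so its number differs from that in the label.
Atxn1 coding stretch: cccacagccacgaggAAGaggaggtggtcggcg

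The 12 cerebellar libraries of this age held 68241854 to 89642011 counted read pairs each, and 4.08 to 4.86% of these were mitochondrial. Levels are given as CPM, counts relative to a fixed library total, scaled by trimmed mean of M values (TMM). The tissue label was checked against markers. Pcp2, a Purkinje cell gene, was at 207 to 400 CPM over the 12 libraries, Gabra6 of granule cells at 749 to 847 and the cerebellar homeobox gene En2 at 116 to 155, whereas the forebrain genes Emx1 and Drd1 stayed under 1 CPM and Neurod6 was at 6.66 to 8.20. WT replicate 3 stood apart on the second principal component and had 16.1 CPM of Ttr, the defining gene of choroid plexus, against 1039 to 4067 in the other 11 libraries. Fold changes are log2 of 175QK772T over 175Q ± SE, from a quasi-likelihood fit in edgeR that holds sex as a covariate. Genes count as called, and as having risen or fallen, where the p adjusted by Benjamini and Hochberg's method over all genes tested was under 0.05.

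Atxn1 itself (ENSMUSG00000046876, GRCm38 chr13:45549755-45965008, minus strand) was at 55.2, 56.8, 54.1 and 51.5 CPM in the 4 175Q mice. In the 4 175QK772T mice it was at 60.5, 63.2, 63.6 and 60.3 CPM, and WT mice had 46.8 to 50.4 CPM. The 3 groups did not overlap, and 175QK772T was the highest. The rise over 175Q was 0.17 ± 0.03 (edgeR adjusted p = 0.0251), and leaving out any of 6 single libraries (175Q replicates 1, 2 and 4, 175QK772T replicates 2, 3 and 4) took it out of the called genes, with values of 0.16 to 0.19. Within 10 Mb of Atxn1, 4 of 182 other tested genes were called, or 2.2%, against 1.19% of all genes tested. Of the 12 measured genes on the list of ataxin-1 and its partners, Atxn1 alone was called, so no partner was. Neither Rora (0.12 ± 0.03, edgeR adjusted p = 0.113) nor Cic, the gene of Capicua (0.11 ± 0.06, edgeR adjusted p = 0.514), passed.

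The K772T change went with higher RNA of a set of cerebellar genes, and almost all calls were in that direction. Of 20447 genes tested, 244 were called (1.19%), 228 of them higher in 175QK772T (1.12%) and 16 lower (0.0783%). The median fold change was 0.32 among the higher and -0.26 among the lower genes. Above 0.5 lay 54 of the higher genes and above 1 lay 12. In 236 of the 244 called genes the 4 values of one group lay wholly above those of the other, which 7.4% of all tested genes showed. Against WT, 2330 genes were called in 175Q (11.4%), 937 higher (4.58%) and 1393 lower (6.81%), and 826 in 175QK772T (4.04%), 319 higher (1.56%) and 507 lower (2.48%). These comparisons share libraries with that of 175QK772T and 175Q. Female mice alone, 3 against 2, gave 50 calls, all 50 higher. Leaving out 175Q replicate 1 gave 148 calls, 145 higher and 3 lower, and without WT replicate 3 there were 252 higher and 71 lower, so the number of falls in particular rests on single libraries.

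**Figure D1:**
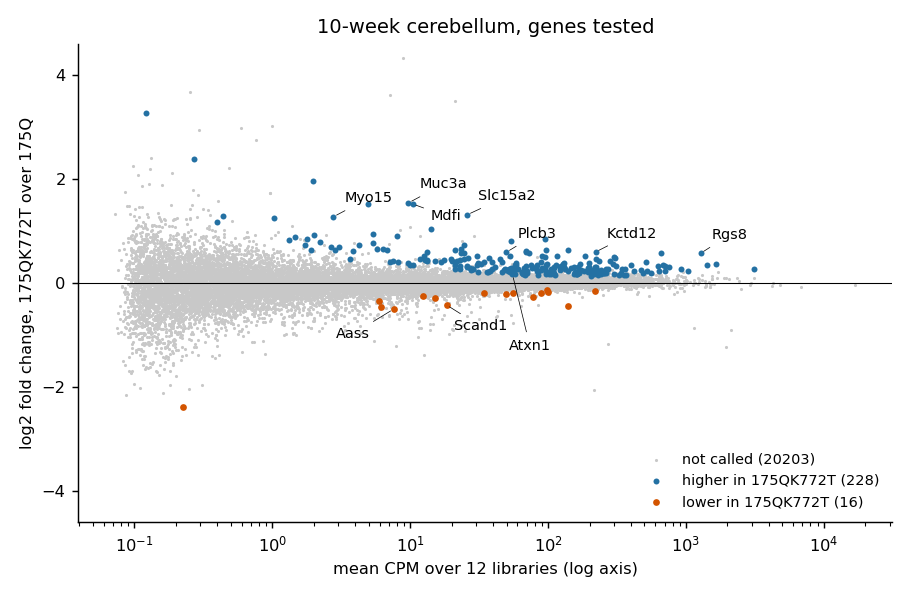
Each point is 1 of 20447 tested genes, with its mean level over the 12 cerebellar libraries of 10 weeks in CPM (log axis) against its log2 fold change of 175QK772T over 175Q. The 228 genes called higher (blue) lie at low and high levels, and all but 2 of the 16 called lower (orange) lie above -0.5.

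The largest rises were in genes of very different function. Muc3a, a mucin gene (chromosome 5), was at 4.00, 3.61, 3.77 and 4.76 CPM in 175Q and at 10.2, 11.2, 11.6 and 12.1 in 175QK772T. Mdfi, an inhibitor of MyoD-family transcription factors (chromosome 17), was at 4.62, 3.55, 3.66 and 4.42 CPM in 175Q and at 11.1, 12.9, 10.4 and 12.2 in 175QK772T. For both genes every 175QK772T mouse lay above every 175Q mouse, but the rule for naming the largest rises required this. The fold changes were 1.54 ± 0.10 and 1.52 ± 0.12 (edgeR adjusted p = 2.4e-06 and 1.08e-05). Muc3a stood at 29.2% of the WT mean in 175Q and at 81.5% in 175QK772T, and Mdfi at 26.2 and 75.1%.
Slc15a2, a peptide transporter, was at 17.7, 7.003, 7.95 and 10.7 CPM in 175Q and at 33.6, 19.6, 39.1 and 24.1 in 175QK772T. It varied most of these genes within each group, also in WT (17.98 to 48.9 CPM), and its rise of 1.31 ± 0.29 (edgeR adjusted p = 0.044) failed the test when any of 6 single libraries was left out (175Q replicates 2, 3 and 4, 175QK772T replicates 1, 3 and 4).
Myo15, a myosin of hair-cell stereocilia, had 0.254, 0.387, 0.628 and 0.506 CPM in 175Q and 1.02, 1.02, 1.11 and 0.835 in 175QK772T, against 4.36 to 8.05 in WT. Its rise was 1.27 ± 0.25 (edgeR adjusted p = 0.020), yet the 175QK772T mean was 14.5% of WT. Kcnh3, a voltage-gated potassium channel of the EAG family, likewise rose by 0.89 ± 0.19 (edgeR adjusted p = 0.0335) from 17.7 to 31.8% of WT. Both genes were thus higher than in 175Q and still called lower than WT (-2.70 and -1.61, edgeR adjusted p = 5.63e-06 and 9.59e-05). The Myo15 call was lost without any of 5 single libraries (175Q replicates 1 and 2, 175QK772T replicates 1, 2 and 3) and the Kcnh3 call without any of 7 (all but 175QK772T replicate 2).

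A pair of the rises belong to the synthesis of catecholamines and their cofactor. Th, tyrosine hydroxylase, was at 3.16, 3.00, 3.69 and 2.83 CPM in 175Q and at 6.61, 6.91, 5.92 and 6.17 in 175QK772T. Gchfr, which regulates the enzyme that starts synthesis of tetrahydrobiopterin, was at 0.807, 1.05, 0.584 and 0.674 CPM and at 1.5, 1.51, 1.58 and 1.203 CPM in turn. Neither gene's groups overlapped, which the rule for naming the largest rises required. The rises were 0.95 ± 0.20 and 0.82 ± 0.15 (edgeR adjusted p = 0.0295 and 0.0131), and Th reached 95.7% of the WT mean. Leaving out single libraries lost the Th call in 6 cases (175Q replicates 1, 2 and 4, 175QK772T replicates 1, 2 and 4) and the Gchfr call in 2 (175Q replicate 1, 175QK772T replicate 4).
Several receptors and signalling genes were among the remaining large rises. Trabd2b, a membrane protease that cleaves Wnt ligands, was at 15.1, 14.6, 16.2 and 17.1 CPM in 175Q and at 22.5, 24.3, 26.4 and 28.5 in 175QK772T (0.74 ± 0.05, edgeR adjusted p = 6.12e-06). Epor, the erythropoietin receptor, rose by 0.70 ± 0.11, the ectodysplasin ligand gene Eda by 0.69 ± 0.11 and the histamine receptor gene Hrh2 by 0.66 ± 0.11 (edgeR adjusted p = 0.00411, 0.00444 and 0.00645). These 4 calls held without any single 175Q or 175QK772T library. Espn, an actin-bundling protein gene, rose by 0.73 ± 0.10, and the transcripts Plekhd1os and AC113458.1 rose by 0.84 ± 0.16 and 0.78 ± 0.11 (edgeR adjusted p = 0.000944, 0.0134 and 0.00125). The Plekhd1os call was lost without 175Q replicate 1 or 175QK772T replicate 4.
Haemoglobin RNA was also higher. Hbb-bt, an adult beta-globin gene, was at 9.26, 6.67, 9.40 and 7.63 CPM in 175Q and at 11.8, 16.2, 20.7 and 19.4 in 175QK772T (1.05 ± 0.17, edgeR adjusted p = 0.00417), while WT had 14.4 to 20.2. Hbb-bs and Hba-a1, which were chosen after their values were seen, rose by 0.84 ± 0.16 and 0.81 ± 0.16 (edgeR adjusted p = 0.0153 and 0.0245). It was thus the 175Q mice that lay below the other 2 groups in Hbb-bt, with no overlap. Towards 175QK772T the naming rule required this. Both later calls were lost without any of 175Q replicates 1, 2 and 4 and 175QK772T replicates 3 and 4, and near-identical globin copies make the split between them uncertain.

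**Figure D2:**
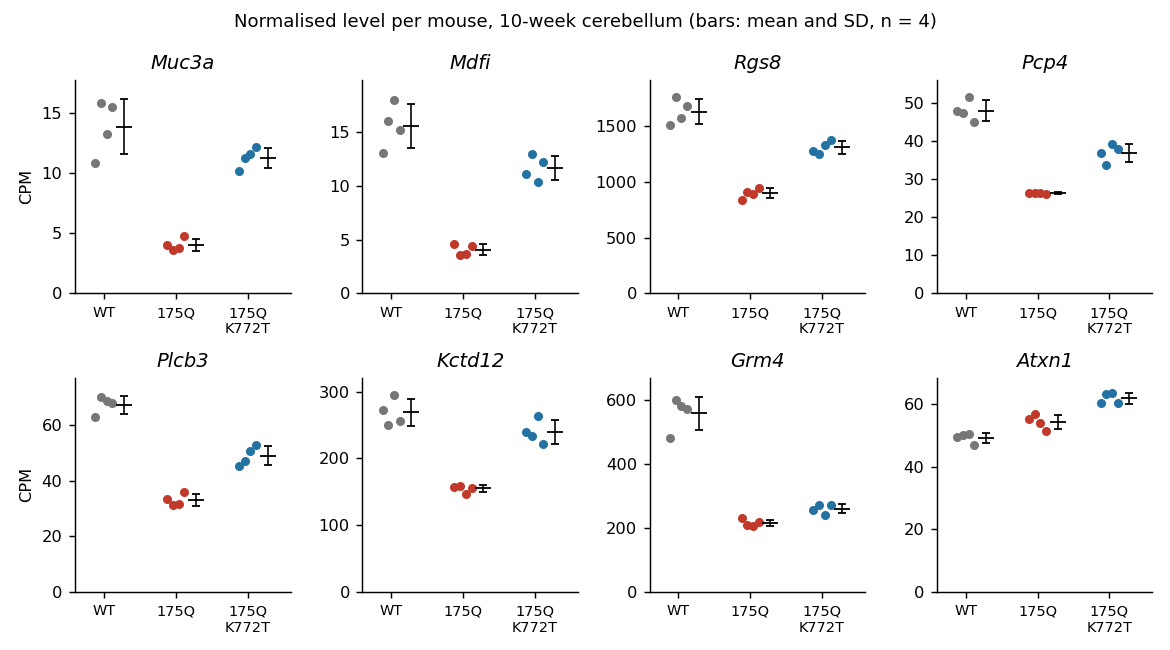
Each point is 1 mouse, the vertical axis is the TMM-scaled level in CPM from 0, and the bars beside the points are mean and SD of 4 mice. In all 8 genes the 175QK772T mice (blue) lie above the 175Q mice (red) without overlap, which the naming rule required of Muc3a and Mdfi. In Atxn1 alone they also lie wholly above WT (grey).

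Genes that mark Purkinje cells rose together. Of 18 members of the Purkinje cell identity list, 14 rose, 0 fell and 4 did not pass, or 77.8% called against 1.19% of all genes. The list's median was 0.33, against -0.003 over all genes tested, and all 18 fold changes were above 0, where 10002 of all 20447 were. The earlier results of these data were known when the list was drawn up, so its direction is no independent evidence. Rgs8, a brake on G-protein signalling that is strong in Purkinje cells (chromosome 1), was at 839, 911, 890 and 948 CPM in 175Q and at 1275, 1252, 1333 and 1377 in 175QK772T. WT mice had 1507 to 1762 CPM, so the 3 groups stood in order with no overlap. The rise was 0.57 ± 0.04 (edgeR adjusted p = 7.58e-06).
Pcp4, a small regulator of calmodulin (chromosome 16), was at 26.4, 26.4, 26.4 and 26.0 CPM in 175Q and at 36.9, 33.6, 39.1 and 37.9 in 175QK772T (0.48 ± 0.05, edgeR adjusted p = 0.00016). Car8, which binds the inositol trisphosphate receptor, was at 1299, 1382, 1319 and 1274 CPM and at 1641, 1692, 1765 and 1702 CPM in turn (0.36 ± 0.04, edgeR adjusted p = 0.000205). The calcium buffer gene Calb1 was at 739, 782, 765 and 731 CPM against 881, 895, 960 and 906 (0.27 ± 0.04, edgeR adjusted p = 0.00309). In each of these 3 genes the lowest 175QK772T mouse exceeded the highest 175Q mouse and the highest 175QK772T mouse stayed under the lowest WT mouse.
Among the other members, Stac, an adaptor protein gene, rose by 0.60 ± 0.08, the kinase gene Itpka by 0.52 ± 0.05, the exchange-factor gene Arhgef33 by 0.51 ± 0.05 and Doc2b, a calcium sensor of vesicle release, by 0.51 ± 0.05. Pcp2 rose by 0.48 ± 0.08, the band marker Aldoc by 0.35 ± 0.05 and Slc1a6, the Purkinje cell glutamate transporter, by 0.31 ± 0.05. The smallest rises were those of Dner, a Notch ligand (0.25 ± 0.04), Ppp1r17, a phosphatase inhibitor (0.25 ± 0.04), and Kitl, the ligand of Kit (0.21 ± 0.04). The highest edgeR adjusted p of these was 0.0204. Against the WT mean, the list's median level was 69.3% in 175Q and 88.7% in 175QK772T. The members that did not pass were the transcription factor genes Lhx1 (0.20 ± 0.05), Lhx5 (0.26 ± 0.09), Foxp2 (0.06 ± 0.18) and Skor2 (0.09 ± 0.08), with edgeR adjusted p of 0.0737, 0.257, 0.936 and 0.736. Against WT, 16 of the 18 were called lower in 175Q and 8 in 175QK772T. The list held 12 to 14 calls when any single 175Q or 175QK772T library was left out, and 15 without WT replicate 3. The Slc1a6 call was lost without 175QK772T replicate 4 and that of Kitl without any of 4 libraries (175Q replicates 1 and 4, 175QK772T replicates 3 and 4).

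Promoters of 3 rising genes that hold AGGTCA on either strand are printed, because ROR-alpha, a partner of ataxin-1, binds DNA at sites built on it. They are RefSeq windows on GRCm38.p6 from 250 bases before to 50 bases after an annotated start, 5′ to 3′ on the gene's strand. Capitals mark AGGTCA or, for the other strand, TGACCT. The Rgs8 window is chr1:153665423-153665722 (plus strand, 1 of 3 annotated windows and the only one with a match), that of Pcp4 chr16:96467356-96467655 (plus strand) and that of Plcb3 chr19:6969765-6970064 (minus strand).
Rgs8: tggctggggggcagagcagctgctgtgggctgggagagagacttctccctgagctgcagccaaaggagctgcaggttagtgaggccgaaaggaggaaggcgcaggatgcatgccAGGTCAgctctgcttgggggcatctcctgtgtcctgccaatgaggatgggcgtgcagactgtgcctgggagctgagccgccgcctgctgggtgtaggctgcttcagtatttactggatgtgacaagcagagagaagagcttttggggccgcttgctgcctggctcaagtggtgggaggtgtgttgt
Pcp4: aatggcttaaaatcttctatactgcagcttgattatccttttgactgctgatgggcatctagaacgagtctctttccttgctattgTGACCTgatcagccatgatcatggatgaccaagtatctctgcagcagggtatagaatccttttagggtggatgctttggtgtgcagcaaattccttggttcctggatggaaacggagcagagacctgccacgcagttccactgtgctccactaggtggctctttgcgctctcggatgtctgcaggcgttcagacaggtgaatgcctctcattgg
Plcb3: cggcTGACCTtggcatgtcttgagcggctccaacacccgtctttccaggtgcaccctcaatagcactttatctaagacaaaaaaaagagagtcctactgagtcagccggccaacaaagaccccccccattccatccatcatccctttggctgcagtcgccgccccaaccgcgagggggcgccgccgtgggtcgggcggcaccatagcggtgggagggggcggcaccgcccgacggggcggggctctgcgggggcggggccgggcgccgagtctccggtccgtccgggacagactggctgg
The motif was present in the promoters of 30 of 167 matched genes that rose (17.96%) and in 2032 of 13229 matched genes tested (15.4%). The 3 printed promoters each hold it and so are not typical of the genes that rose. The Capicua motifs TGAATGAA and TGAATGGA, on either strand, were in 0.599 and 1.796% of the promoters of rising genes and in 1.05 and 0.983% of all and they share their first letters with each other but not AGGTCA. A match is a description of the letters only. Of the 5 listed targets of ROR-alpha in Purkinje cells, 4 rose (Pcp2, Pcp4, Slc1a6 and Itpr1), or 80% called against 1.19% of all genes. All 4 are also on the Purkinje cell identity list or the calcium signalling list below, so this count repeats calls of those lists. Of 8 listed Capicua targets edgeR called 0 (1 at an unadjusted p below 0.05, 0 by DESeq2). Over all 20447 genes tested, 2260 had such an unadjusted p and DESeq2 called 572. The part of either factor in the rises was not tested.

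Calcium entry and release from internal stores drive plasticity at the parallel fibre input of Purkinje cells. Of 22 listed genes of this calcium signalling, 13 rose, 0 fell and 9 did not pass, or 59.1% called against 1.19% of all genes. The list's median was 0.25, against -0.003 over all genes tested. The G-protein gene Gnaq was not called (0.10 ± 0.04, edgeR adjusted p = 0.326). Homer3, a scaffold that ties surface receptors to calcium stores, was at 214, 229, 207 and 237 CPM in 175Q and at 280, 266, 294 and 321 in 175QK772T (0.42 ± 0.06, edgeR adjusted p = 0.00309).
Phospholipase C genes differed from each other in their values. Plcb3 was at 33.4, 31.2, 31.6 and 35.98 CPM in 175Q and at 45.4, 47.2, 50.8 and 52.9 in 175QK772T (0.59 ± 0.05, edgeR adjusted p = 2.45e-05). Plcb4 was at 321 to 341 CPM and at 343 to 351 CPM in turn (0.07 ± 0.03, edgeR adjusted p = 0.402). Whether the 2 paralogues differ in their change was not tested.
Downstream of these enzymes, Itpr1, the calcium release channel of the endoplasmic reticulum, was at 2513, 2797, 2605 and 2821 CPM in 175Q and at 3024, 3143, 3463 and 3152 in 175QK772T. It rose by 0.26 ± 0.06 (edgeR adjusted p = 0.0384). Inpp5a, which degrades the messenger that opens this channel, rose by 0.35 ± 0.04 from 314, 335, 340 and 311 to 391.9, 400, 421 and 430 CPM (edgeR adjusted p = 0.000504). In both genes the lowest 175QK772T mouse lay above the highest 175Q mouse.
Pde5a, a cyclic GMP phosphodiesterase, rose by 0.28 ± 0.05 and the kinase gene Camk2a by 0.35 ± 0.07 (edgeR adjusted p = 0.00417 and 0.0281). Cacna1g, a T-type calcium channel of the list, is given with the ion channels. The calcium pump genes Atp2a2 and Atp2b2 rose by 0.23 ± 0.04 and 0.22 ± 0.04 (edgeR adjusted p = 0.0114 and 0.00952). At the synapse, the scaffold genes Grid2ip and Shank2 rose by 0.59 ± 0.09 and 0.36 ± 0.06 (edgeR adjusted p = 0.00243 and 0.00842). Members without a call included Cacna1a, the P/Q-type calcium channel (0.03 ± 0.05), Ryr1 (0.10 ± 0.10), Prkg1 (0.12 ± 0.04) and Pvalb (0.16 ± 0.05), with edgeR adjusted p of 0.896, 0.764, 0.252 and 0.176.
Against WT, 17 of the 22 were called lower in 175Q and 6 in 175QK772T. The number of members that rose was 8 without 175Q replicate 1, 10 to 12 without any other single library of the 2 groups, and 2 in females alone. The Itpr1 call was lost without any single library but 175QK772T replicate 1, that of Camk2a without any of 6 (175Q replicates 1, 2 and 4, 175QK772T replicates 1, 3 and 4), that of Atp2a2 without 175Q replicate 1 or 2, and those of Atp2b2 and Shank2 without 175Q replicate 1.

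**Figure D3:**
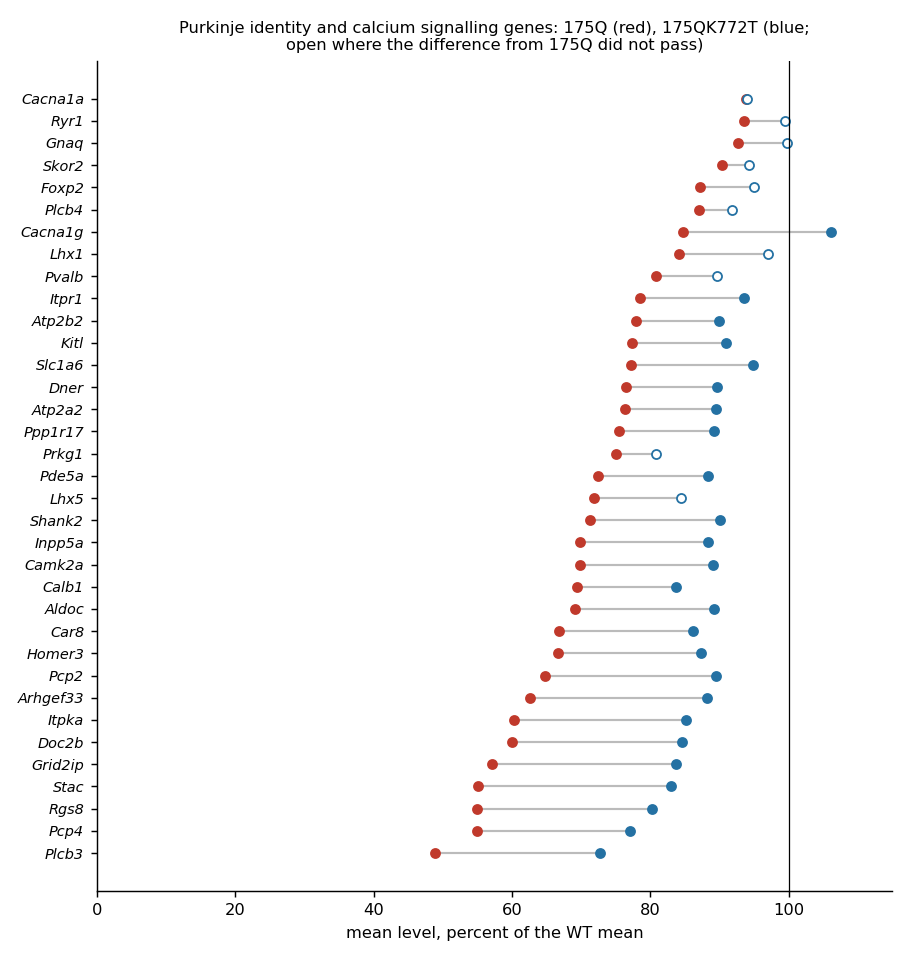
Mean level in 175Q (red) and 175QK772T (blue) of 35 genes named from the Purkinje cell identity and calcium signalling lists, as percent of the WT mean of the same gene, ordered by the 175Q level. Filled blue points passed the test against 175Q, and in each of these genes the blue point lies to the right of the red one, beyond 100% for Cacna1g alone.

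Ion channel genes of Purkinje cells split by gene. Of 20 on the list, 5 rose, 0 fell and 15 did not pass, or 25% called against 1.19% of all genes. The list's median was 0.14, against -0.003 over all genes tested. Kcng4, a potassium channel subunit gene, was at 130, 135.5, 146 and 146 CPM in 175Q and at 162, 162, 170 and 196 in 175QK772T. Its groups did not overlap, and it rose by 0.36 ± 0.04, the calcium channel gene Cacna1g by 0.33 ± 0.05 and the auxiliary subunit gene Kcnab1 by 0.18 ± 0.04 (edgeR adjusted p = 0.000122, 0.00408 and 0.0338). Scn2b (0.14 ± 0.03) and Kcnma1 (0.20 ± 0.05) came close without passing (edgeR adjusted p = 0.055 and 0.0885). The Kcnab1 call was lost without any single library but 175QK772T replicate 2. By DESeq2, 9 of the 20 were called, where 572 of all 20447 genes tested were. Of 30 listed genes of inherited ataxias 7 rose (23.3% called, against 1.19% of all genes), among them Cacna1g, Itpr1, Car8 and Atxn1.
Of 20 GABA and glycine receptor genes 2 rose, or 10% called against 1.19% of all genes. These were Gabbr1 and Gabbr2, which form the metabotropic GABA-B receptor. Gabbr2 was at 223, 223, 228 and 226 CPM in 175Q and at 264.5, 261, 264 and 278 in 175QK772T (0.26 ± 0.03, edgeR adjusted p = 0.00046). Gabbr1 rose by 0.23 ± 0.03 (edgeR adjusted p = 0.000867), and the other 18 genes of the list were not called by edgeR. Kctd12, which encodes an auxiliary subunit of the GABA-B receptor, was at 158, 159, 147 and 156 CPM in 175Q and at 239, 234, 263 and 221 in 175QK772T (0.60 ± 0.04, edgeR adjusted p = 6.12e-06).
Of 23 glutamate receptor genes 2 rose, or 8.7% called against 1.19% of all genes. Grik1, a kainate receptor gene, rose by 0.31 ± 0.06 (edgeR adjusted p = 0.0175). Grm4, the presynaptic receptor of parallel fibres, was at 230, 210, 207 and 217 CPM in 175Q, at 255, 271, 241 and 271 in 175QK772T and at 483 to 601 in WT. Its rise of 0.28 ± 0.06 (edgeR adjusted p = 0.0384) took it from 38.6 to 46.5% of WT, so most of its distance from WT remained. The Grm4 call was lost without any of 6 single libraries (175Q replicates 2, 3 and 4, 175QK772T replicates 1, 2 and 4) and that of Grik1 without any of 3 (175Q replicates 1 and 2, 175QK772T replicate 3).

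Markers of the other cell types of the cerebellum were rarely called, as were genes in general. Over 11 lists (granule cells, inhibitory interneurons, oligodendrocytes and their precursors, microglia, endothelial and mural cells, meninges, choroid plexus, ependyma, deep nuclei and brainstem, forebrain), edgeR called 0 of 98 tested genes, 8 had an unadjusted p below 0.05, and DESeq2 called 2. This pool holds only lists without an edgeR call, so its 0 was set by the choice of lists. Of all 20447 genes tested, edgeR called 1.19%, 2260 had an unadjusted p below 0.05 and DESeq2 called 572. The counts of the pool lie near these shares, so they show nothing particular to these cell types. Outside it are Bergmann glia and astrocytes, given below, and unipolar brush cells. Of 5 unipolar brush cell genes 1 rose, which is also on the calcium signalling list, 2 had an unadjusted p below 0.05 and DESeq2 called 1. The list of granule cell genes had a median of 0.03, and its levels were a median 86.8% of WT in 175Q and 87.3% in 175QK772T. Cbln1, a synaptic organiser that granule cells secrete, was at 558, 532, 533 and 598 CPM in 175Q, at 606, 612, 575 and 621 in 175QK772T and at 707 to 893 in WT (0.14 ± 0.06, edgeR adjusted p = 0.429). Cbln3 and the transcription factor gene Neurod1 had 0.07 ± 0.05 and 0.09 ± 0.04 (edgeR adjusted p = 0.697 and 0.436). Their 175QK772T means, at 79.9 and 87.3% of WT, lay near the 175Q means of 77.1 and 81.4%.
Among 14 synaptic organisers of Purkinje cell inputs edgeR called 0, 3 had an unadjusted p below 0.05 and DESeq2 called 2. Crhr1, the receptor for corticotropin-releasing hormone, was at 41.7 to 49.2 CPM in 175Q and at 50.05 to 56.3 in 175QK772T, groups that do not overlap (0.25 ± 0.07, edgeR adjusted p = 0.119), against 72.1 to 87.9 in WT. Of 14 genes of Bergmann glia and astrocytes 12 had positive values, where 10002 of all 20447 genes tested did, with a median of 0.11. An unadjusted p below 0.05 was found for 7 of the 14, and DESeq2 called 3, against 2260 and 572 of all 20447 genes. By edgeR 1 rose, Hopx (0.30 ± 0.06, edgeR adjusted p = 0.0337), a homeodomain gene of Bergmann glia. Slc1a3, their glutamate transporter (0.16 ± 0.05), and Gdf10 (0.18 ± 0.05) did not pass (edgeR adjusted p = 0.263 and 0.14). The Hopx call was lost without any single library of the 2 groups, with values of 0.27 to 0.33. Cholesterol synthesis (18 genes) and chaperones (15) had 0 edgeR calls, with 9 and 0 genes at an unadjusted p below 0.05 and 2 and 0 by DESeq2, and medians of 0.11 and 0.04. All 18 cholesterol genes had positive values, of 0.03 to 0.26, where 10002 of all 20447 genes tested did.
In 3 lists the median lay far from that of all genes while few members were called. Choroid plexus genes summed to 2395 to 4397 CPM in 175Q, 1177 to 2573 in 175QK772T and 47.7 to 2516 in WT, with a median of -0.78 and 0 calls of 10 by edgeR (0 at an unadjusted p below 0.05, 0 by DESeq2). Interferon response genes had a median of -0.37 and 1 call of 14, Nmi. Of the 14 values 13 were below 0, while 10002 of all 20447 genes tested were above it. Immediate early genes had a median of 0.43 and 1 call of 12, Egr1, an activity-driven transcription factor gene, which was at 24.6, 25.5, 27.7 and 17.5 CPM in 175Q and at 39.6, 34.8, 36.4 and 30.3 in 175QK772T (0.52 ± 0.11, edgeR adjusted p = 0.0268). Fos, another such gene, was at 3.61 to 40.0 CPM in 175Q and at 28.9 to 62.03 in 175QK772T (0.81 ± 0.38, edgeR adjusted p = 0.453). These levels varied among mice of 1 genotype, and the part of choroid plexus content and of recent activity in the other results was not tested. Without WT replicate 3, the library poor in choroid plexus, 243 of the 244 calls remained. That library is in neither of the compared groups, so this fit cannot address the choroid plexus difference between 175Q and 175QK772T. The Egr1 call was lost without any of 5 single libraries (175Q replicates 1 and 2, 175QK772T replicates 1, 3 and 4).

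**Figure D4:**
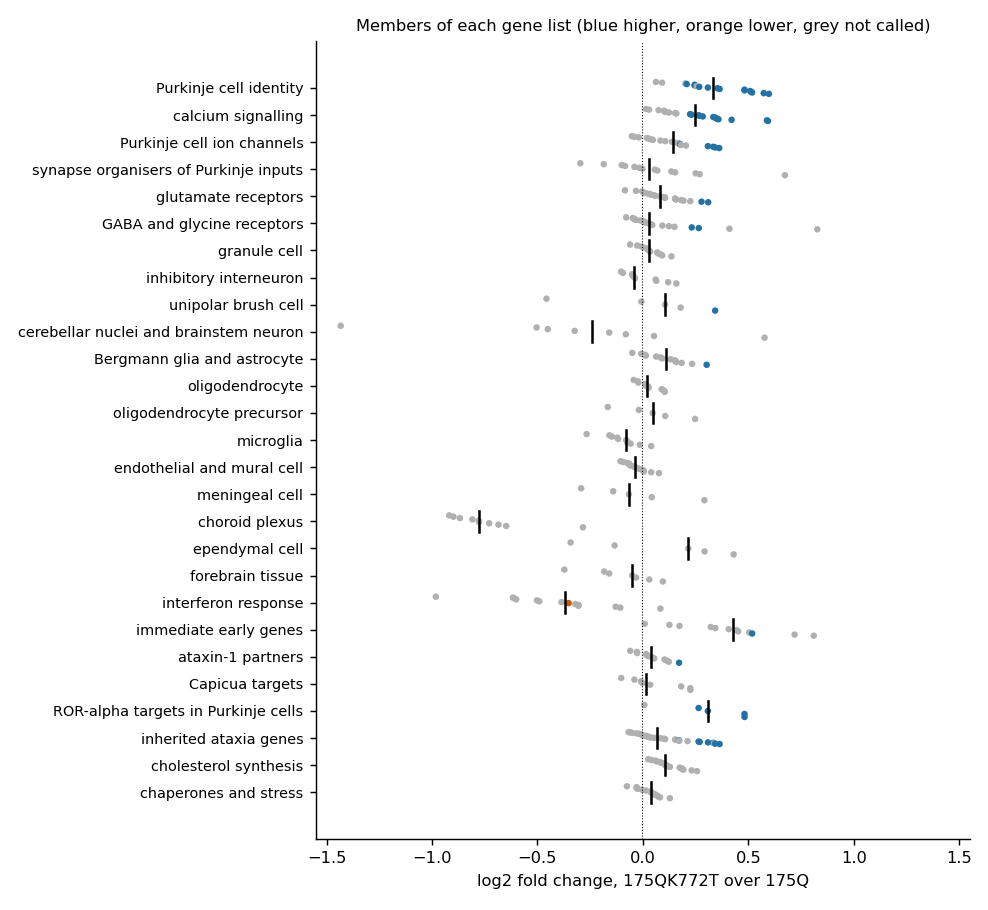
Each row is 1 of 27 gene lists and each point 1 member, placed by its log2 fold change of 175QK772T over 175Q. Blue members were called higher, orange lower and grey not called, black bars are list medians and the dotted line is the median of all genes. The blue points gather in the Purkinje cell lists at the top and in the lists that share members with them.

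Of the 16 genes called lower, 2 lay below -0.5, and these were Aass and 1 of 2 overlapping gene models of Ptp4a1 (0.361 CPM in 175Q, 0.0624 in 175QK772T, -2.38 ± 0.48, edgeR adjusted p = 0.0226). The other model of Ptp4a1 had 0.44 ± 0.24 (edgeR adjusted p = 0.529), and how reads were divided between the 2 models is uncertain. Aass, the first enzyme of lysine breakdown, was at 9.74, 8.42, 9.11 and 7.95 CPM in 175Q and at 6.23, 6.56, 6.58 and 5.96 in 175QK772T (-0.50 ± 0.10, edgeR adjusted p = 0.0251). Scand1, a gene with a SCAN domain, fell from 19.2, 20.4, 21.5 and 22.9 to 15.8, 12.7, 13.8 and 18.4 CPM (-0.42 ± 0.08, edgeR adjusted p = 0.0113). Abca1, the exporter of cellular cholesterol, was at 82.3, 86.1, 85.2 and 79.1 CPM and at 66.01, 63.4, 74.7 and 72.6 CPM in turn (-0.27 ± 0.05, edgeR adjusted p = 0.0131). In these 3 genes the 175QK772T mean was also below the WT mean, at 82.8, 80.1 and 86.6% of it.
A second group of falls ended near the WT level. Gbe1, the glycogen branching enzyme, stood at 137% of WT in 175Q and at 112% in 175QK772T (-0.29 ± 0.07), and Cdo1, cysteine dioxygenase, at 129 and 109% (-0.25 ± 0.06). The mitochondrial enzyme genes Acadl (-0.21 ± 0.05), Idh2 (-0.20 ± 0.04), Hadhb (-0.19 ± 0.04) and Mut (-0.18 ± 0.04) stood at 113 to 123% of WT in 175Q and at 101 to 108% in 175QK772T. Nmi, an interferon-induced partner of STAT proteins, fell by 0.35 ± 0.08 from 123 to 99.1%. The highest edgeR adjusted p of these 7 was 0.0486. That the 4 values of each group did not overlap was required of these 10 falls by the rule that named them. Each of the 10 calls was lost without at least 1 single library. The direction was kept in every such fit, but groups without overlap left little room for a reversal.

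In 38 of the 244 called genes the 175QK772T mean did not lie between those of 175Q and WT. In 31 of them it was higher than both and in 7 lower than both. Among them were genes of lipid metabolism and lipid signalling. Fads1, the delta-5 fatty acid desaturase, was at 175, 166, 193 and 176 CPM in 175Q, at 208, 225, 202 and 218 in 175QK772T and at 190 to 203 in WT (0.28 ± 0.04, edgeR adjusted p = 0.00229). S1pr1, a receptor for sphingosine-1-phosphate, was at 165, 172, 168 and 164 CPM and at 198, 201, 208 and 185 CPM in the 2 mutants, with 178 to 190 in WT (0.23 ± 0.03, edgeR adjusted p = 0.00137). Plpp3, a lipid phosphate phosphatase, rose by 0.20 ± 0.03 and Lcat, which esterifies cholesterol, by 0.28 ± 0.04 (edgeR adjusted p = 0.00294 and 0.00411).
These 4 genes were at 88.2 to 91.3% of WT in 175Q and at 105 to 107% in 175QK772T. None of the 4 was called against WT in 175QK772T, whose edgeR adjusted p were 0.14 to 0.297. Cacna1g was at 271, 278, 249 and 287 CPM in 175Q and at 345, 343, 328 and 343 in 175QK772T, or 84.7 and 106% of WT. Clec3b (0.46 ± 0.06), the vesicle GTPase gene Rab3d (0.40 ± 0.07), the kinase scaffold gene Ksr2 (0.21 ± 0.04) and Nomo1 (0.17 ± 0.03) showed the same order, with edgeR adjusted p of 0.00122 to 0.00878. Igdcc4, a cell-surface gene of the immunoglobulin family, rose by 0.25 ± 0.04 (edgeR adjusted p = 0.00411) and was also called above WT (0.16, edgeR adjusted p = 0.039). Rps27a, a fusion of ubiquitin and a ribosomal protein, was lower than both, at 77.8% of WT (-0.43 ± 0.08, edgeR adjusted p = 0.00941). Its groups overlapped, at 116 to 172 CPM in 175Q and 103 to 136 in 175QK772T, processed copies of the gene make its counts uncertain, and its call was lost without 175Q replicate 1, as was that of Ksr2.

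Other mice were sampled at 26 weeks and, per the labels' protocols, sequenced as a separate batch. Their titles give the same genotypes, but the names of their libraries in the labels and the count table give a shorter repeat, so the repeat length at this age is uncertain. With that limit, the same contrast was set beside that of 10 weeks. There 175Q replicate 4 and 175QK772T replicate 2 had 13.5 and 11.5% mitochondrial counts, against 3.89 to 5.01% in the other 10 libraries. With all 12 libraries, 19 of 19156 genes were called (0.0992%), 17 higher (0.0887%) and 2 lower (0.0104%). Without those 2 libraries, 1682 of 19306 were called (8.71%), 994 higher (5.15%) and 688 lower (3.56%). The number of calls at 26 weeks therefore rests on 2 libraries, and both fits are given.
Of the 224 genes that rose at 10 weeks and could be tested at 26 weeks, 218 had a positive value there (97.3%), where 48.3% of all genes did. Their median at 26 weeks was 0.33, against -0.009 over all genes. Without the 2 libraries the figures were 215 of 225 (95.6%, against 50.8% of all genes) and a median of 0.37. In that fit 133 of them were called higher, where 10 were with all libraries. Of the genes that fell at 10 weeks, 8 of 15 were below 0 at 26 weeks (53.3%), near the 51.7% of all genes. Without the 2 libraries 11 of 15 were (73.3%), against 49.2% of all genes. The medians of the fallen genes were -0.009 and -0.06 in turn.
Conversely, genes that differed between 175Q and WT at 26 weeks were looked up at 10 weeks, in mice that played no part in their choice. At 26 weeks 576 genes differed between 175Q and WT (3.01%). Of the 407 that were lower in 175Q (2.12%), 114 rose and 0 fell with K772T at 10 weeks (28.01%, median 0.20). Of the 169 that were higher (0.882%), 166 were tested at 10 weeks and edgeR called 0 (35 at an unadjusted p below 0.05, 7 by DESeq2), with a median of -0.09. Over all 20447 genes tested at 10 weeks the median was -0.003. Of these, edgeR called 1.19%, 2260 had an unadjusted p below 0.05 and DESeq2 called 572.

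8 named genes were called at both ages, and all 8 were higher in 175QK772T. Kctd12 was at 91.6, 80.2, 101 and 97.2 CPM in 175Q at 26 weeks and at 188, 157, 163 and 151 in 175QK772T (0.83 ± 0.09, edgeR adjusted p = 0.00777). Stac was at 5.77 to 6.99 and 10.5 to 12.2 CPM (0.88 ± 0.12), Trabd2b at 9.72 to 10.9 and 16.8 to 21.6 (0.88 ± 0.11), and Ppp1r16b, a regulatory subunit of protein phosphatase 1, at 131 to 149 and 196 to 245 (0.64 ± 0.09). Fads1 had 0.53 ± 0.08, Plpp3 0.47 ± 0.07, Gdf11, a ligand of the TGF-beta family, 0.73 ± 0.12 and the antisense transcript Dlx4os 1.03 ± 0.16 at that age. The highest edgeR adjusted p of the 8 was 0.0492. None of them overlapped between the 2 groups at 26 weeks, but they were chosen by their calls at that age, so this is no separate result. At 10 weeks Ppp1r16b rose by 0.49 ± 0.04, Gdf11 by 0.35 ± 0.07 and Dlx4os by 0.46 ± 0.10 (edgeR adjusted p = 1.48e-05, 0.016 and 0.0323). The 10-week calls of Gdf11 and Dlx4os were lost without single libraries (Gdf11 without 175Q replicate 2 or 4, Dlx4os without any of 6, which were 175Q replicates 1, 3 and 4 and 175QK772T replicates 2, 3 and 4).
Some of the leading genes of 10 weeks were not called at 26 weeks. Rgs8 had 0.65 ± 0.11 (edgeR adjusted p = 0.0663), Mdfi 1.253 ± 0.29 (edgeR adjusted p = 0.155) and Muc3a 0.76 ± 0.41 (edgeR adjusted p = 0.554), and without the 2 libraries all 3 were called (0.62, 1.44 and 0.68, edgeR adjusted p = 0.0121, 0.0052 and 0.0205). Slc15a2 was at -0.37 with all libraries and -0.12 without the 2 (edgeR adjusted p = 0.843 and 0.903). For Atxn1 itself the fold change at 26 weeks was -0.03 with all libraries and 0.009 without the 2. The difference of the contrast between ages was tested as an interaction, and 3 of 18916 genes passed (0.0159%, 1434 at an unadjusted p below 0.05), 2 with a higher value at 26 weeks (0.0106%) and 1 with a lower (0.00529%). None of the 239 genes called at 10 weeks that entered this test was among them. Without the 2 libraries 487 of 19034 passed (2.56%), 270 higher (1.42%) and 217 lower (1.14%), 19 of them genes called at 10 weeks.

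**Figure D5:**
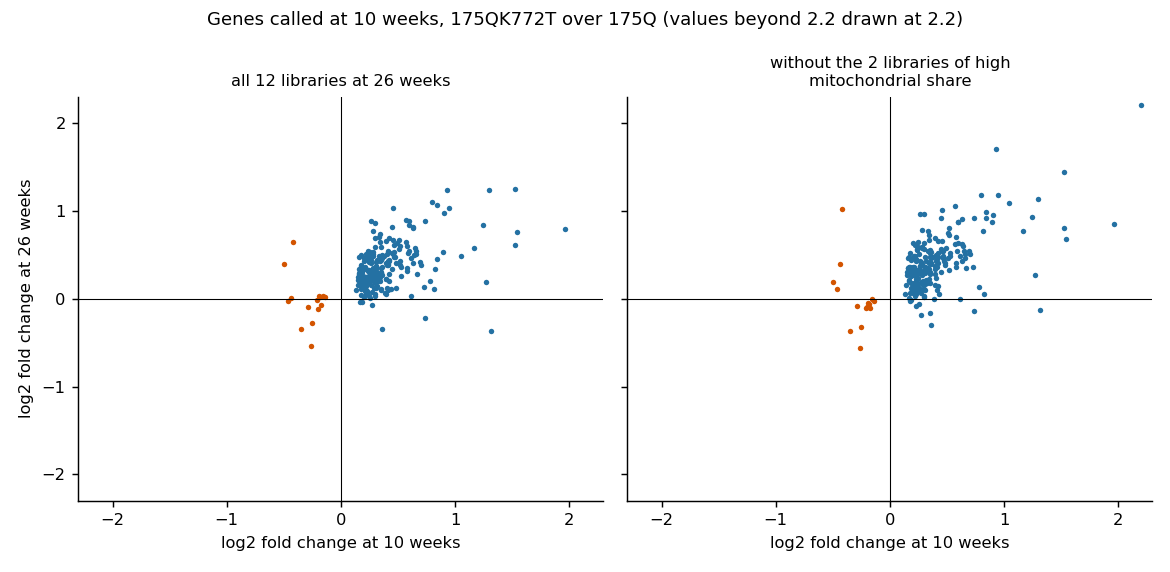
Each point is a gene called at 10 weeks, with its log2 fold change of 175QK772T over 175Q at 10 weeks (horizontal) and in the other mice of 26 weeks (vertical), with all libraries (left) and without the 2 of high mitochondrial share (right). Of the genes called higher at 10 weeks (blue), 218 of 224 lie above 0 on the left and 215 of 225 on the right, and the genes called lower (orange) lie on both sides of 0.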

How the data were processed

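Values used were raw counts of read pairs per gene, as deposited by the authors. The submitters' processing notes name bcl2fastq 2.20.0, Trimmomatic 0.33, HISAT2 2.1.0, GRCm38 and featureCounts of Subread 1.6.2. The header of the 10-week file gives Ensembl release 97, reverse strand, both ends aligned and a mapping quality of at least 10; for 26 weeks these are not given in the sources used here.

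Genes were kept by filterByExpr, scaled by TMM and tested with edgeR 4.0.16 (R 4.3.3) on the 12 libraries of an age, with terms for genotype and sex. Alternatives were DESeq2 1.42.0, RLE scaling, no filter, no sex term, a replicate block, no WT libraries, females only and single libraries left out. The fits without WT replicate 3 and without the 2 libraries of high mitochondrial share were chosen after seeing the data. In simulated counts of the 10-week comparison (20181 genes), the smallest to the largest of 4 fold sizes were recovered for 60, 78, 96 and 100% of 50 genes, with 12 false among 179 calls. Libraries were checked for copies and none was found.

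The members and the 27 gene lists (321 genes, all matched by symbol) were chosen with earlier results of these data known. Named were Atxn1, the 15 largest rises and 10 largest falls that averaged 1 CPM or more and whose groups did not overlap, up to 6 members of a list by p, up to 12 genes by p outside the means of 175Q and WT, and 8 genes called at both ages. Genes on chromosome Y, Xist, Tsix, Gm- and Rik-named genes and those without a symbol were left out, and some list members are not reported here. Further members of the Purkinje cell and calcium signalling lists, Hbb-bs, Hba-a1, Ptp4a1, Kcnma1, Fos and 3 genes of the interaction were named after their values were seen. Promoters are from RefSeq, the coding stretch from GENCODE release M21.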

Additional observations from a re-analysis of the deposited data

Results flagged for a closer look

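In 303 groups of 4 mice of the genes named, 9 held a mouse that lay far from the other 3 for the group's range (Dixon's test at the 95% level), where chance alone flags about 1 group in 20. In 175Q these were replicate 4 for Atp2b2 (659 CPM, the others 594 to 603), replicate 2 for Kitl (187, the others 163 to 165) and replicate 4 for Pcp4 (26.0, the others 26.4). In 175QK772T they were replicate 3 for Cacna1g (328, the others 343 to 345), replicate 1 for Foxp2 (16.03, the others 9.95 to 10.8) and replicate 4 for Scn2b (385, the others 398 to 400). WT replicate 1 was the lowest for Hopx (134, the others 166 to 172), Itpka (56.98, the others 67.3 to 67.6) and Ryr1 (53.1, the others 66.6 to 67.6). The Foxp2 value of 0.06 turned to -0.09 without that mouse.

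In 3 genes the contrast of 175QK772T and 175Q differed between the ages by the interaction test. The ages were also separate sequencing batches and the repeat length at 26 weeks is uncertain, so these cannot be told apart. Hrk, a proapoptotic gene of the BCL2 family, was at 13.95 to 17.4 CPM in 175Q and 12.8 to 13.7 in 175QK772T at 10 weeks, and at 30.4 to 43.7 and 14.5 to 14.9 at 26 weeks, when WT had 8.30 to 10.8. The difference between the contrasts was -1.01 ± 0.13 (edgeR adjusted p = 0.00514), and without the 2 libraries of high mitochondrial share it was -0.88 ± 0.12 (edgeR adjusted p = 0.00154). Slc7a3, a transporter of cationic amino acids, was at 11.8 to 15.4 and 12.1 to 15.8 CPM at 10 weeks and at 4.73 to 7.04 and 10.9 to 15.2 at 26 weeks (0.99 ± 0.16, edgeR adjusted p = 0.0387). Adm2, which encodes a peptide of the adrenomedullin family, had 1, 1, 1 and 5 counts in the 175Q mice at 26 weeks and 21, 67, 19 and 26 in the 175QK772T mice, and its fitted difference between ages of 4.02 (edgeR adjusted p = 0.0325) depends on the prior count at such low counts. At 10 weeks its levels were 0.428 to 0.846 CPM in 175Q and 0.361 to 1.01 in 175QK772T.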

How the results depend on the processing

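The direction of all 75 named and called genes was kept under every alternative run at 10 weeks. These genes were chosen by calls in the same libraries, so this was likely from the start and is no separate support. 40 of them kept their call without any single 175Q or 175QK772T library and 35 lost it without at least 1. Of the 244 calls, 121 were made in each of the 8 such fits. DESeq2 kept 238 of the 244 and RLE scaling 243.

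At 10 weeks the genes called, higher and lower were 572, 475 and 97 by DESeq2, 50, 50 and 0 in females only, 942, 626 and 316 with no filter on low counts and 143, 139 and 4 with the replicate block. Genes lower were 58 with 8 libraries without WT. Without 1 library of the 2 groups or WT replicate 3 the calls ranged from 148 to 323, those higher from 145 to 252 and those lower from 3 to 71. Members that rose numbered 5 (Purkinje cell identity) and 2 (calcium signalling) in females only, and 12 to 15 and 8 to 13 without single libraries.

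At 26 weeks the genes called, higher and lower were 404, 243 and 161 by DESeq2, 252, 143 and 109 with no filter, 12, 10 and 2 with no sex term, 6, 5 and 1 with the replicate block and 1682, 994 and 688 without the 2 libraries of high mitochondrial share. Without 1 library they ranged from 1 to 44, 0 to 36 and 1 to 8. Between ages, 487, 270 and 217 genes passed without those 2 libraries, and 1 higher with no sex term.

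The value of Cacna1a was -0.011 in females only and ranged from -0.012 to 0.0523 without single libraries, and that of Foxp2 from -0.0863 to 0.141. Replicate numbers did not pair the mice: correlations of same-numbered deviations at 10 weeks were 0.142, 0.213, -0.272 and 0.433. With the replicate block 50 of the 75 named calls passed. The cause of these changes was not tested. Depth limits what is said of genes near 1 CPM, such as Myo15, Kcnh3 and Gchfr, and of the low counts at 26 weeks.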
